A study of Mus musculus with 36 samples.

Results

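The genes described here handle iron and haem in the mouse. They are the hepcidin genes Hamp and Hamp2, haemopexin (Hpx), haptoglobin (Hp), lipocalin 2 (Lcn2), the metalloreductase Steap4, transferrin (Trf), ferroportin (Slc40a1), ferritin heavy chain (Fth1) and caeruloplasmin (Cp). They were chosen by symbol in the platform's annotation, which gave 12 probes for these 10 genes among 23982 probes and 14739 named genes. Hp and Steap4 had 2 probes each: Hp probe a is scl000592.1_8-S, Hp probe b is scl34345.7_19-S, Steap4 probe a is scl0004149.1_262-S and Steap4 probe b is scl26903.5_40-S. The RNA came from spleens and livers of male BALB/c mice that had all received J558 myeloma cells under the skin of the neck and ate standard chow. The treated mice drank oil palm phenolics (OPP, a phenolic extract of the oil palm, at 1500 ppm in gallic acid equivalents, GAE) and the controls drank distilled water. Each tissue had 6 groups of 3 Illumina arrays, OPP and water at 18 hours, 1 week and 4 weeks, at labelled ages of 6, 7 and 10 weeks, which makes 12 groups and 36 arrays. The design text counts the times from the inoculation, whereas the treatment label of every sample names 4 weeks after it, so time, age and any difference in the length of drinking cannot be told apart. No group was free of J558 cells, and the labels do not say whether an array held RNA of 1 mouse or of several.

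Iron is scarce and reactive, so mammals carry it bound to protein. Hepatocytes secrete hepcidin, which binds ferroportin on macrophages, enterocytes and hepatocytes and causes its loss from the membrane, so that less iron reaches plasma transferrin. Splenic macrophages take up aged red cells, open the haem ring with haem oxygenase, store the iron in ferritin and release it through ferroportin. During inflammation the liver makes more hepcidin, haptoglobin, haemopexin, caeruloplasmin and lipocalin 2, the acute phase response, driven mainly by interleukin 6 through STAT3 and by interleukin 1 through NF-kB and C/EBP factors, while bone morphogenetic proteins (BMPs) raise hepcidin when iron is plentiful.

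Every deposited value is a linear ratio in which the middle of a probe's 18 values in that tissue was set to 1, so levels cannot be compared between genes or between liver and spleen. For the same reason the tissue labels could not be checked against marker levels. Lists of markers of hepatocytes, pancreatic acinar cells, neutrophils, erythroid cells and macrophages were read as the median log2 ratio of each list on each array. In spleen, 3 arrays had a hepatocyte median above 0.5, namely replicate 1 of OPP at 1 week (0.70) and replicates 2 and 3 of water at 18 hours (1.04 and 0.70), while the other 15 lay between -0.30 and 0.20. Acinar medians reached 4.88 in replicate 1 of liver OPP at 4 weeks and -6.64 in replicate 2 of spleen water at 1 week. The array medians over all probes lay between -0.065 and 0.114 in spleen and between -0.034 and 0.038 in liver on the log2 scale.

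In liver, 5 of the 10 genes were lower at both later times than at 18 hours in both drinks: Lcn2, Steap4, Cp, Hpx and Hp by its probe a. Hamp2 was higher. At 1 week against 18 hours, limma (adjusted p under 0.05 over all 23982 probes) called 6 of the 12 member probes lower and 1 higher in OPP mice, where it called 17.3% of all probes (2.61% lower, 14.7% higher). In water mice it called 7 lower and 1 higher (7.12% of all probes, 2.66% lower and 4.46% higher). At 4 weeks against 18 hours it called 6 lower and 2 higher in OPP mice (16.9%, 3.16% lower and 13.7% higher) and 6 lower and 1 higher in water mice (9.21%, 3.29% lower and 5.91% higher). Between 4 weeks and 1 week no member was called in either drink, where 0.00417% of all probes were called in each, with 2 member probes at an unadjusted p under 0.05 in OPP mice (6.7% of all probes) and 5 in water mice (7.19%). Against 18 hours, groups did not overlap for 9 of the 12 member probes at 1 week and 8 at 4 weeks in each drink. The shares of all probes were 30.2% and 31.1% in OPP mice and 22.4% and 25.8% in water mice. In bulk tissue a smaller number of cells of a type and less RNA per cell cannot be told apart.

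**Figure D1:**
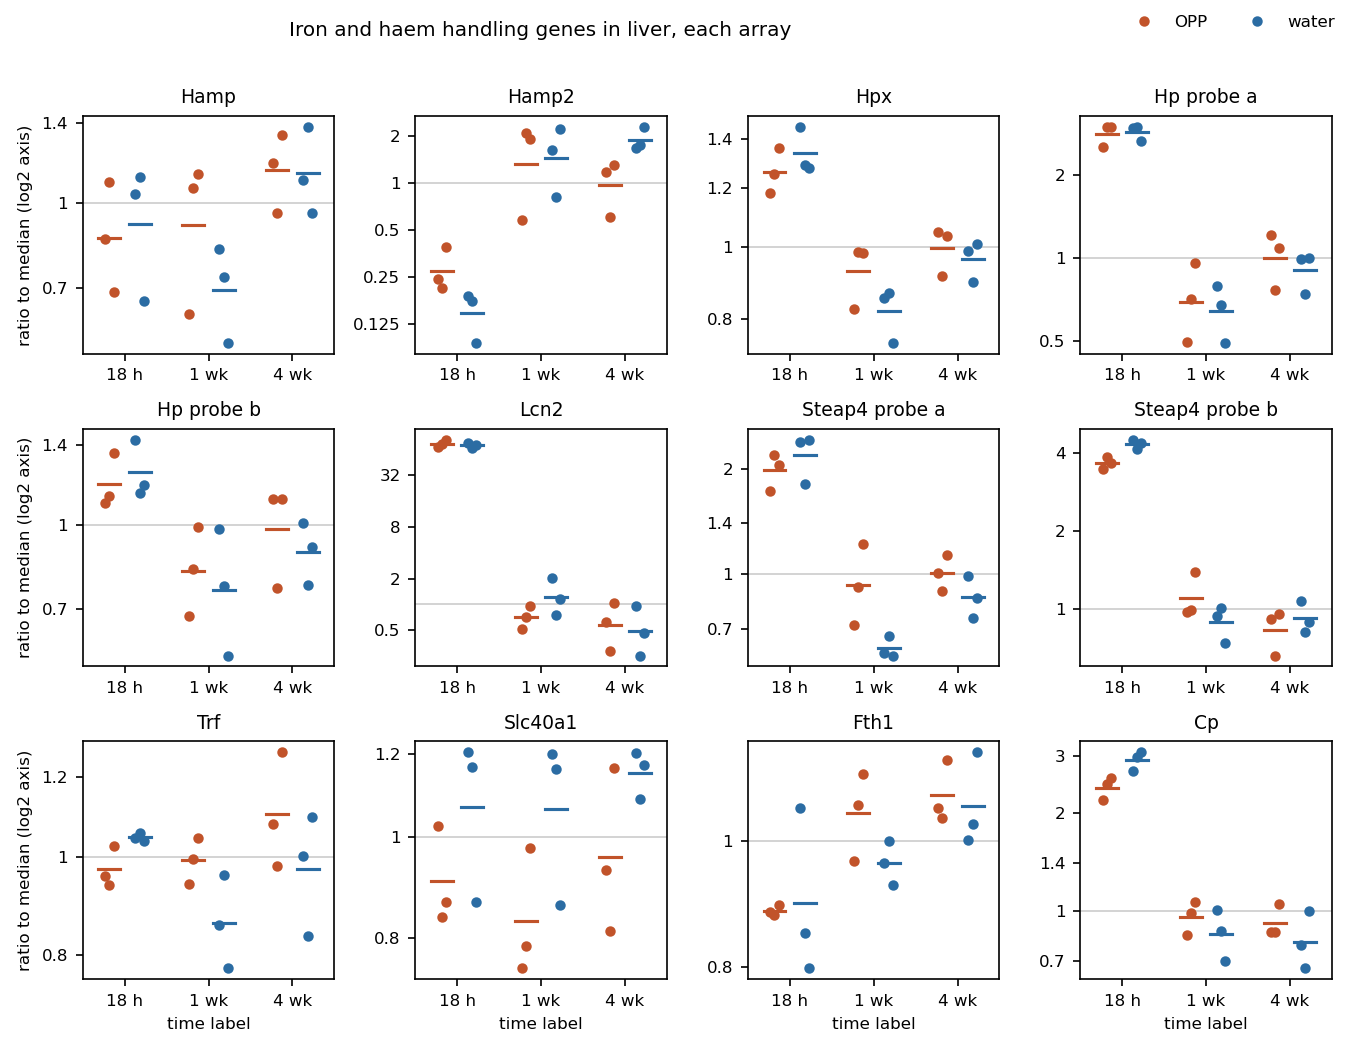
Ratio of each member probe (median set to 1) on the 18 liver arrays (log2 axis) at 18 hours, 1 week and 4 weeks. Points are single arrays of OPP (left) and water (right), and bars are geometric means of 3 arrays. The Lcn2 points of 1 and 4 weeks lie between 0.255 and 2.02, and those of 18 hours between 66.6 and 82.6.

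Among the hepcidin genes, Hamp did not pass the test at any time in liver, whereas Hamp2 rose. Hamp encodes the hepcidin that acts on ferroportin, and Hamp2 is a neighbouring mouse copy whose product is not known to lower iron. Hamp ratios in livers of OPP mice were 0.861, 1.09 and 0.687 at 18 hours, 0.628, 1.06 and 1.13 at 1 week, and 1.18, 0.960 and 1.33 at 4 weeks. Hamp ratios in livers of water mice were 1.04, 1.11 and 0.664 at 18 hours, 0.824, 0.734 and 0.556 at 1 week, and 1.10, 1.38 and 0.959 at 4 weeks. In both drinks the arrays of 1 week and 4 weeks overlapped those of 18 hours. In water mice, however, the 4-week arrays, 0.959 to 1.38, lay above those of 1 week, 0.556 to 0.824. That log2 difference was 0.70 and was not called. Groups did not overlap for 4 of the 12 member probes in that comparison, against 12.6% of all probes. Hamp2 ratios in livers of OPP mice were 0.245, 0.214 and 0.391 at 18 hours, 0.582, 2.10 and 1.92 at 1 week, and 1.18, 0.611 and 1.31 at 4 weeks. Hamp2 ratios in livers of water mice were 0.190, 0.177 and 0.0951 at 18 hours, 1.63, 0.821 and 2.24 at 1 week, and 1.68, 1.74 and 2.30 at 4 weeks. The lowest of the 12 later arrays was 0.582, above all 6 arrays of 18 hours, 0.0951 to 0.391. Hamp2 rose by 2.28 (SE 0.44) at 1 week and 1.84 at 4 weeks in OPP mice, and 3.29 (SE 0.44) and 3.68 in water mice, on the log2 scale against 18 hours (limma adjusted p = 0.0012 and 0.0064 for OPP, 0.00012 and 2.71e-05 for water). With quantile normalisation the OPP difference at 4 weeks was 1.36 and was not called (adjusted p = 0.102). Hamp differed by 0.075 and 0.41 in OPP mice and by -0.40 and 0.31 in water mice at the same times, with adjusted p-values between 0.311 and 0.904.

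The upstream windows of the pair are shown because Hamp2 was called in liver and Hamp was not. The 250 bases before each annotated start (RefSeq, GRCm38.p6) were aligned, and 227 of 247 aligned bases (91.9%) were identical, with 6 gap positions. Whether the Hamp and Hamp2 probes separate such similar transcripts was not tested. Capitals mark TTCNNNGAA, the letters bound by STAT factors, and GGCGCC, the core of the BMP response element, each searched on both strands.
Hamp, chr7:30944030-30944279, minus strand: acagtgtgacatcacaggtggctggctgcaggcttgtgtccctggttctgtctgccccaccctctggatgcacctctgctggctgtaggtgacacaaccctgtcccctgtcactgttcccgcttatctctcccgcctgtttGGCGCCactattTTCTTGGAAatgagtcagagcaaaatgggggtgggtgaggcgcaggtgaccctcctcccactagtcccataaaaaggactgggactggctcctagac
Hamp2, chr7:30924182-30924431, minus strand: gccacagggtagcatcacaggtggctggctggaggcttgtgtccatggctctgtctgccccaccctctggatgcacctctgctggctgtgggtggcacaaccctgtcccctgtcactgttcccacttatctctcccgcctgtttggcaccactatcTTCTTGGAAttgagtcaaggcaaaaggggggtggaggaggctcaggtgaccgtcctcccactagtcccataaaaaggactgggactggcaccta
Both windows held TTCTTGGAA, 97 to 89 bases before the Hamp start and 94 to 86 bases before the Hamp2 start. GGCGCC was found in the Hamp window, 109 to 104 bases before its start, and not in the Hamp2 window. Over 32851 promoters of the same length, 7.02% held TTCNNNGAA and 9.59% held GGCGCC.

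Hpx and Hp, the plasma proteins that bind free haem and free haemoglobin, were highest at 18 hours. Hpx ratios in livers of OPP mice were 1.18, 1.25 and 1.36 at 18 hours, 0.827, 0.986 and 0.981 at 1 week, and 1.05, 0.914 and 1.03 at 4 weeks. Hpx ratios in livers of water mice were 1.45, 1.29 and 1.28 at 18 hours, 0.855, 0.868 and 0.744 at 1 week, and 0.990, 0.899 and 1.01 at 4 weeks. The highest of the 12 later arrays was 1.05, below all 6 arrays of 18 hours, 1.18 to 1.45. Hpx fell, with a log2 difference of -0.45 at 1 week and -0.34 at 4 weeks in OPP mice, and -0.71 and -0.47 in water mice, (SE 0.095 each; limma adjusted p = 0.00263 and 0.0173 for OPP, 0.000127 and 0.0032 for water). Its 4-week call in OPP mice was lost without replicate 3 of 18 hours (adjusted p = 0.0876) or without replicate 2 of 4 weeks (adjusted p = 0.0857).

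Hp probe a ratios in livers of OPP mice were 2.53, 2.99 and 2.99 at 18 hours, 0.497, 0.712 and 0.957 at 1 week, and 1.22, 0.765 and 1.09 at 4 weeks. Hp probe a ratios in livers of water mice were 2.97, 2.98 and 2.65 at 18 hours, 0.792, 0.678 and 0.494 at 1 week, and 0.994, 0.744 and 1.01 at 4 weeks. Its highest later array was 1.22, and its lowest array of 18 hours was 2.53. Hp probe b ratios in livers of OPP mice were 1.10, 1.13 and 1.35 at 18 hours, 0.680, 0.831 and 0.991 at 1 week, and 1.12, 0.767 and 1.12 at 4 weeks. Hp probe b ratios in livers of water mice were 1.43, 1.15 and 1.19 at 18 hours, 0.982, 0.771 and 0.576 at 1 week, and 1.01, 0.777 and 0.910 at 4 weeks. On probe b the 4-week arrays of OPP mice reached 1.12 and overlapped those of 18 hours, 1.10 to 1.35. In water mice probe a fell, with a log2 difference of -2.15 (SE 0.21, limma adjusted p = 4.67e-06) and probe b -0.72 (SE 0.18, adjusted p = 0.0232) at 1 week on the log2 scale. In OPP mice probe a fell, with a log2 difference of -2.02 at 1 week and probe b, not called, differed by -0.53 (adjusted p = 0.0582). The probe b call in water mice was lost without replicate 1 or 3 of 18 hours or replicate 2 or 3 of 1 week, with adjusted p-values of 0.0585 to 0.11.

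Lcn2, a lipocalin that binds iron-loaded bacterial siderophores, had the largest log2 differences of the members in liver. Lcn2 ratios in livers of OPP mice were 67.2, 72.4 and 82.6 at 18 hours, 0.522, 0.725 and 0.971 at 1 week, and 0.634, 0.289 and 1.03 at 4 weeks. Lcn2 ratios in livers of water mice were 74.9, 66.6 and 70.9 at 18 hours, 2.02, 0.765 and 1.17 at 1 week, and 0.973, 0.255 and 0.465 at 4 weeks. The 18-hour arrays of both drinks lay far above every later array, and the later groups overlapped each other. Lcn2 fell, with a log2 difference of -6.69 at 1 week and -7.01 at 4 weeks in OPP mice, and -5.86 and -7.18 in water mice, on the log2 scale (SE 0.44 each; limma adjusted p = 5.01e-08 and 1.65e-08 for OPP, 2.78e-07 and 1.53e-08 for water). Its SD of 3.31 on the log2 scale over the 18 liver arrays stood at percentile 99.99 of all probes. Neutrophils also store Lcn2. Of 23 neutrophil marker probes in liver, 5 fell and 0 rose at 1 week in OPP mice (2.61% of all probes lower). In water mice 4 fell and 0 rose (2.66% of all probes lower). The median of the list lay between -0.106 and 0.001 at 1 week against 0.023 to 0.110 at 18 hours. The part of neutrophil number in the Lcn2 difference was not tested.

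Steap4 reduces ferric iron and copper at membranes. Steap4 probe a ratios in livers of OPP mice were 1.72, 2.20 and 2.06 at 18 hours, 0.716, 0.922 and 1.22 at 1 week, and 1.01, 0.894 and 1.14 at 4 weeks. Steap4 probe a ratios in livers of water mice were 2.38, 1.81 and 2.42 at 18 hours, 0.597, 0.667 and 0.586 at 1 week, and 0.990, 0.748 and 0.856 at 4 weeks. On this probe all 6 arrays of 18 hours stood above the 12 later ones. Steap4 probe b ratios in livers of OPP mice were 3.49, 3.87 and 3.67 at 18 hours, 0.973, 0.992 and 1.39 at 1 week, and 0.912, 0.660 and 0.953 at 4 weeks. Steap4 probe b ratios in livers of water mice were 4.52, 4.17 and 4.38 at 18 hours, 0.941, 1.01 and 0.736 at 1 week, and 1.08, 0.814 and 0.894 at 4 weeks. On both probes the highest later array lay below the lowest 18-hour array, 1.22 against 1.72 on probe a and 1.39 against 3.49 on probe b. In OPP mice probe a fell, with a log2 difference of -1.09 and probe b -1.73 at 1 week, and in water mice -1.83 and -2.30, on the log2 scale (limma adjusted p = 0.000145, 1.11e-06, 1.68e-06 and 5.97e-08). At 4 weeks the falls were -0.97 and -2.14 in OPP mice and -1.35 and -2.24 in water mice, all called.

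Cp, the copper-bearing oxidase that loads iron onto transferrin, followed the same order of times. Cp ratios in livers of OPP mice were 2.19, 2.46 and 2.56 at 18 hours, 0.839, 0.980 and 1.06 at 1 week, and 0.858, 0.860 and 1.05 at 4 weeks. Cp ratios in livers of water mice were 2.70, 2.99 and 3.09 at 18 hours, 1.01, 0.865 and 0.697 at 1 week, and 0.782, 0.663 and 0.994 at 4 weeks. No later array exceeded 1.06, and no 18-hour array was below 2.19. Cp fell, with a log2 difference of -1.33 at 1 week and -1.39 at 4 weeks in OPP mice, and -1.79 and -1.87 in water mice, on the log2 scale (SE 0.15 each, limma adjusted p = 7.52e-06, 4.29e-06, 6.84e-07 and 2.47e-07).

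Upstream windows of Lcn2, Steap4, Hpx and Cp are shown because they fell in liver and the RefSeq promoter table holds them. That table had a window for 7 of the 10 genes, and the windows printed cover the 250 bases before the start on GRCm38.p6. Capitals mark TTCNNNGAA (STAT), TTGCNNAA (C/EBP) and an NF-kB pattern of 10 letters, searched on both strands.
Lcn2, chr2:32387740-32387989, minus strand: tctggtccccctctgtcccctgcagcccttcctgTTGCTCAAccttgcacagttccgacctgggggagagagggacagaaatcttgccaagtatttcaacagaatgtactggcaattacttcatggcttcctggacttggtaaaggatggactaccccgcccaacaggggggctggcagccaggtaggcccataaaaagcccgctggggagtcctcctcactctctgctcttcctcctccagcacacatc
Steap4, chr5:7960222-7960471, plus strand: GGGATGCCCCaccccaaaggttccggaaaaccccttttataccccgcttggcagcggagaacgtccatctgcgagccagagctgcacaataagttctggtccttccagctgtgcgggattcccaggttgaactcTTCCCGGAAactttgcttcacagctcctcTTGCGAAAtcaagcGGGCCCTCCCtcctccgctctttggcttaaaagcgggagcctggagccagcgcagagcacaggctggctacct
Hpx, chr7:105600117-105600366, minus strand: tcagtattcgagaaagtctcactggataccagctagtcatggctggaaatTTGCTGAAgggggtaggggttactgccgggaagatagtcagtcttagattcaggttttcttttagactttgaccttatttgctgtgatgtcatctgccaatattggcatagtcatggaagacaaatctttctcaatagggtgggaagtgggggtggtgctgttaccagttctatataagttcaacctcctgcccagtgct
Cp, the second of its 2 windows, chr3:19956999-19957248, plus strand: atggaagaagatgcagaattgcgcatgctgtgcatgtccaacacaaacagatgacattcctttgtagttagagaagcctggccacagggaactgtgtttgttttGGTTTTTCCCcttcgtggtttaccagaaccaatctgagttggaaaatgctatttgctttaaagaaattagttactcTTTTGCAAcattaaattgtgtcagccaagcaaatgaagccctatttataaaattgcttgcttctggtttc
The Lcn2 window held TTGCTCAA and the Hpx window TTGCTGAA. The Cp window shown held the C/EBP letters on the minus strand, read here as TTTTGCAA, and the NF-kB pattern once, while its other window held none of the motifs searched. The Steap4 window held TTCCCGGAA, TTGCGAAA and the NF-kB pattern at 2 places. Fth1, which was not called lower in any liver comparison, also had windows in that table. Its second window held the C/EBP letters as TTGCAGAA and TTGGGCAA and the NF-kB pattern as GGCTCCTCCC. These letters were thus not particular to the genes that fell. In the same 32851 promoters, TTGCNNAA occurred in 9.56% and the NF-kB pattern in 17.63%. Neither the STAT nor the NF-kB pattern was found in these windows of Lcn2 and Hpx, which says only that these letters are not there.

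Trf, the plasma iron carrier, and Slc40a1, the iron exporter, were not called in any liver comparison. Trf ratios in livers of OPP mice were 0.959, 0.939 and 1.03 at 18 hours, 0.942, 0.997 and 1.04 at 1 week, and 1.08, 0.980 and 1.27 at 4 weeks. Trf ratios in livers of water mice were 1.05, 1.06 and 1.04 at 18 hours, 0.858, 0.960 and 0.777 at 1 week, and 1.00, 0.837 and 1.10 at 4 weeks. Trf stayed within 0.777 and 1.27 on all 18 arrays. Slc40a1 ratios in livers of OPP mice were 1.03, 0.838 and 0.866 at 18 hours, 0.748, 0.786 and 0.975 at 1 week, and 0.929, 0.812 and 1.16 at 4 weeks. Slc40a1 ratios in livers of water mice were 1.21, 1.17 and 0.866 at 18 hours, 1.20, 1.16 and 0.860 at 1 week, and 1.20, 1.09 and 1.17 at 4 weeks. The 4-week and 18-hour arrays overlapped for both genes in both drinks, whereas the water arrays of Trf at 1 week, 0.777 to 0.96, lay below those of 18 hours, 1.04 to 1.06 (-0.28, limma adjusted p = 0.136), a difference called with quantile normalisation only (-0.35, adjusted p = 0.0465). Trf differed by 0.18 in OPP mice and -0.11 in water mice at 4 weeks against 18 hours, and Slc40a1 by 0.079 and 0.11, on the log2 scale. Fth1, the ferritin subunit that oxidises iron for storage, differed by little. Fth1 ratios in livers of OPP mice were 0.881, 0.877 and 0.893 at 18 hours, 0.965, 1.07 and 1.12 at 1 week, and 1.06, 1.04 and 1.15 at 4 weeks. Fth1 ratios in livers of water mice were 1.06, 0.850 and 0.798 at 18 hours, 0.962, 0.999 and 0.924 at 1 week, and 1.00, 1.03 and 1.17 at 4 weeks. In OPP mice the 4-week arrays, 1.04 to 1.15, all lay above the 18-hour arrays, 0.877 to 0.893. Fth1 rose by 0.29 there on the log2 scale (SE 0.097, limma adjusted p = 0.0443), a call that was lost without any 1 of its 6 arrays (adjusted p = 0.0593 to 0.171). The call was also lost under median centring (0.0654), a replicate block (0.0621) and quantile normalisation (0.14). In water mice the difference was 0.25 and was not called (adjusted p = 0.139), although it was without replicate 1 of 18 hours (0.37, adjusted p = 0.0166).

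Oil palm phenolics were compared with water at each time, the comparison that the design sets up. None of the 12 probes was called in liver at 18 hours, 1 week or 4 weeks or in the mean of the 3 times, nor in spleen. The background was low: limma called 0%, 0.926% and 0.0625% of all probes in liver at the 3 times and 0.346% in the mean, and 0%, 0.00834%, 0.334% and 1.69% in spleen. At an unadjusted p under 0.05, 0, 2 and 1 member probes passed in liver (7.61%, 10.9% and 7.74% of all probes) and 6, 0 and 0 in spleen (10.9%, 10.2% and 8.87%). Nor did the F test for an OPP effect that differed between times call a member in either tissue, where it called 0.108% of all probes in liver and 0.00417% in spleen.

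**Figure D2:**
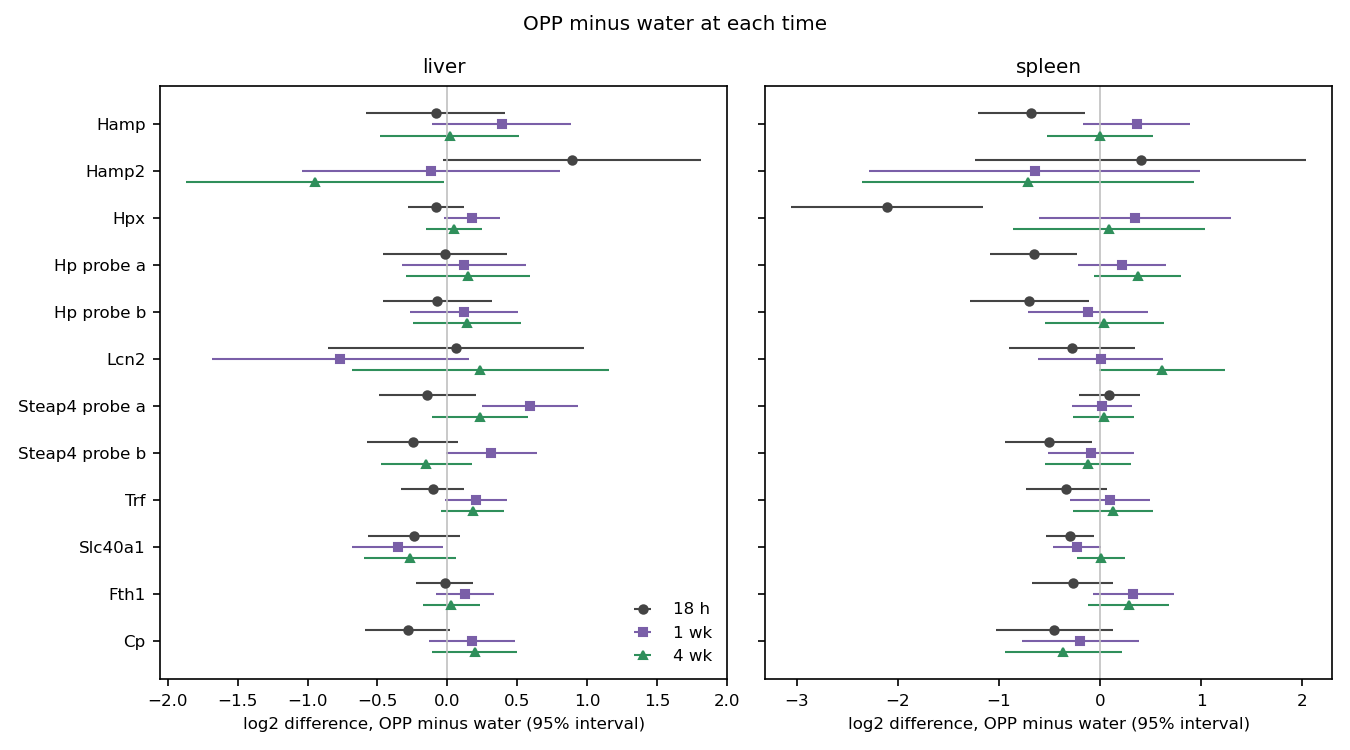
Log2 difference of OPP minus water for each member probe in liver (left) and spleen (right) at 18 hours, 1 week and 4 weeks, with 95% intervals from limma. The farthest point is spleen Hpx at 18 hours, at -2.11.

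The smallest p among the members in liver belonged to Steap4 probe a at 1 week. Its OPP arrays, 0.716 to 1.22, lay above its water arrays, 0.586 to 0.667, with a log2 difference of 0.59 (95% interval 0.25 to 0.94, limma adjusted p = 0.107). Probe b gave 0.31 (-0.010 to 0.64) with overlapping groups. Probe a was called without replicate 1 of OPP (0.78, adjusted p = 0.0202) and with quantile normalisation (0.87, adjusted p = 0.00833). Slc40a1 was lower on average in OPP livers at all 3 times, by -0.24, -0.35 and -0.27 on the log2 scale, with overlapping arrays each time. Its mean difference of -0.29 (-0.48 to -0.098, limma adjusted p = 0.201) was called under 1 alternative, array weights (-0.35, adjusted p = 0.0219). At 18 hours the liver arrays of OPP and water did not overlap for 4 of the 12 probes, against 14.7% of all probes. Hamp2 was higher in OPP mice (0.89, adjusted p = 0.671), while Trf (-0.10, adjusted p = 0.867), Steap4 probe b (-0.25, adjusted p = 0.747) and Cp (-0.28, adjusted p = 0.682) were lower, none of them called. Steap4 probe a was the 1 probe apart at 1 week (12.6% of all probes), and Hamp2 was the 1 probe apart at 4 weeks (12.5%), with the opposite sign (-0.94, adjusted p = 0.634).

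In spleen at 18 hours, 6 member probes were lower in OPP mice at an unadjusted p under 0.05, namely Hpx (-2.11), Hp probe a (-0.65) and probe b (-0.70), Hamp (-0.68), Steap4 probe b (-0.51) and Slc40a1 (-0.30), with limma adjusted p-values of 0.426 to 0.436. Groups did not overlap for 5 of the 12 probes, against 16% of all probes, and 2 of the 3 water arrays of that time are the ones with high hepatocyte markers, whose part was not tested. At 4 weeks the groups did not overlap for 3 probes, Hp probe a and Fth1, higher in OPP mice, and Cp, lower (20.7% of all probes). A fit to those 6 arrays called Hp probe a (0.37, adjusted p = 0.0381), Lcn2 (0.61, adjusted p = 0.0467) and Cp (-0.36, adjusted p = 0.0269), where it called 800 probes in all against 80 in the fit to 18 arrays.

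The 95% intervals of the OPP differences give the sizes these arrays left room for, on the log2 scale. In liver, Hpx ran from -0.28 to 0.12 at 18 hours, -0.021 to 0.38 at 1 week and -0.15 to 0.25 at 4 weeks. Liver Lcn2 at 1 week was wider, -1.68 to 0.16, and liver Hamp at 1 week ran from -0.11 to 0.89. In spleen, Hamp2 at 18 hours ran from -1.24 to 2.04, while Slc40a1 at 4 weeks ran from -0.23 to 0.24.

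**Figure D3:**
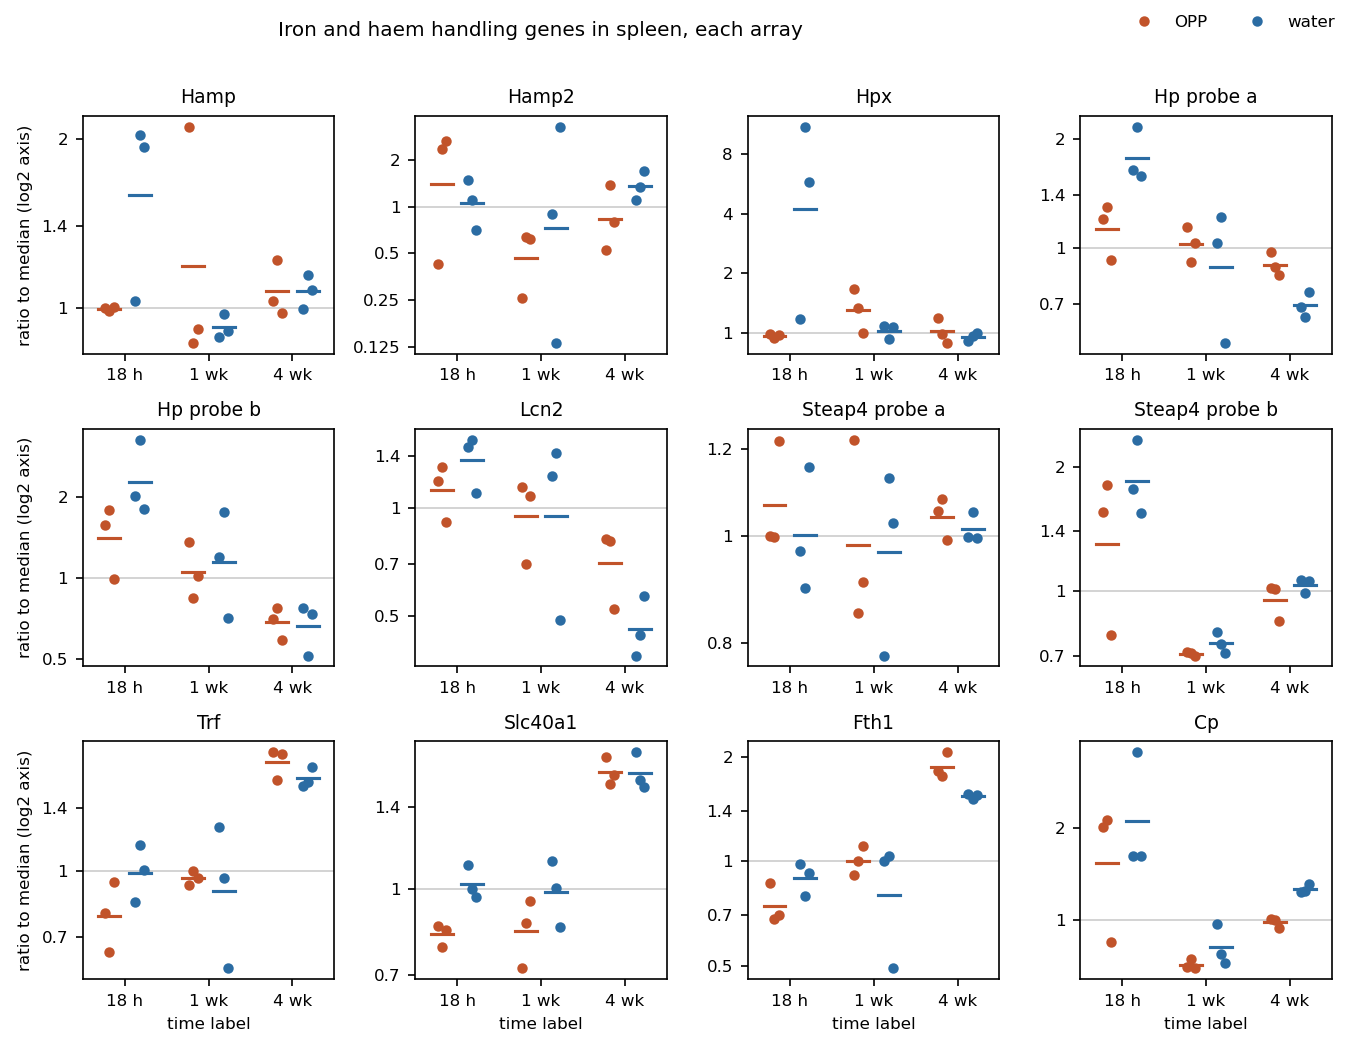
Ratio of each member probe (median set to 1) on the 18 spleen arrays (log2 axis) at 18 hours, 1 week and 4 weeks. Points are single arrays of OPP (left) and water (right), and bars are geometric means of 3 arrays. No array of 4 weeks is below 1.52 for Trf, Slc40a1 or Fth1, and no earlier array is above 1.27.

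In spleen the iron transport and storage genes Trf, Slc40a1 and Fth1 rose at 4 weeks in both drinks, and Hpx, Hp, Lcn2 and Steap4 by its probe b fell between 18 hours and 4 weeks in water mice. At 4 weeks against 1 week, limma called 3 members higher and 0 lower in OPP mice (30.1% of all probes, 28.8% higher and 1.39% lower), and 3 higher and 2 lower in water mice (26.1%, 24.4% higher and 1.68% lower). Against 18 hours it called 3 higher and 1 lower in OPP mice (28%, 27% higher and 1.05% lower) and 3 higher and 5 lower in water mice (24.3%, 23% higher and 1.34% lower). In all 4 comparisons the 3 of 12 member probes called higher were a share near that of all probes. The share of calls over all probes that were higher was 96.3% in OPP mice and 94.5% in water mice for 4 weeks against 18 hours, but 77.5% and 71.9% once each array was centred on its median and 66.1% and 61.7% after quantile normalisation. For 4 weeks against 1 week it was 95.4% and 93.6%, against 73.3% and 67.8% centred and 56.9% and 47.9% after quantile normalisation. The median of all probes moved by 0.11 to 0.17 on the log2 scale in these 4 comparisons, so differences relative to it are given as well.

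Slc40a1 ratios in spleens of OPP mice were 0.859, 0.788 and 0.845 at 18 hours, 0.721, 0.868 and 0.952 at 1 week, and 1.72, 1.54 and 1.60 at 4 weeks. Slc40a1 ratios in spleens of water mice were 1.10, 0.998 and 0.966 at 18 hours, 1.12, 1.00 and 0.855 at 1 week, and 1.76, 1.57 and 1.52 at 4 weeks. Ferroportin was thus higher on each array of 4 weeks than on any earlier one. Trf ratios in spleens of OPP mice were 0.799, 0.647 and 0.942 at 18 hours, 0.925, 0.997 and 0.960 at 1 week, and 1.89, 1.62 and 1.87 at 4 weeks. Trf ratios in spleens of water mice were 0.844, 1.15 and 1.00 at 18 hours, 1.27, 0.964 and 0.593 at 1 week, and 1.57, 1.61 and 1.75 at 4 weeks. All 6 arrays of 4 weeks lay above all earlier arrays for both genes. Fth1 ratios in spleens of OPP mice were 0.868, 0.683 and 0.698 at 18 hours, 0.914, 0.999 and 1.11 at 1 week, and 1.82, 1.76 and 2.07 at 4 weeks. Fth1 ratios in spleens of water mice were 0.982, 0.796 and 0.926 at 18 hours, 1.00, 1.04 and 0.491 at 1 week, and 1.56, 1.52 and 1.55 at 4 weeks. Its 4-week arrays, 1.52 to 2.07, also stood clear of the earlier ones, of which the highest was 1.11. Separation by time was common on these arrays. Between 4 weeks and 1 week, groups did not overlap for 48.9% of all probes in OPP mice and 41.2% in water mice. Between 4 weeks and 18 hours the shares were 41.4% and 42.2%. At 4 weeks against 1 week Slc40a1 rose by 0.94 in OPP mice and 0.71 in water mice (0.77 and 0.55 relative to all probes), with limma adjusted p = 9.74e-05 and 0.00105. Trf rose by 0.90 and 0.87 (0.73 and 0.72 relative to all probes, adjusted p = 0.00184 and 0.00412). For Fth1 the rise was 0.90 and 0.95 (0.73 and 0.80 relative to all probes, adjusted p = 0.00192 and 0.00283). These 6 calls held with each array centred and with quantile normalisation.

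Against 18 hours the same genes rose in OPP mice by 0.96 for Slc40a1, 1.19 for Trf and 1.33 for Fth1, and in water mice by 0.66, 0.73 and 0.78, all called by limma. Without the 3 arrays with high hepatocyte markers the water differences were 0.55, 0.96 and 0.65 and were not called (adjusted p = 0.0648, 0.0753 and 0.187), with 1 array left at 18 hours. Between 1 week and 18 hours none of the 3 was called in either drink. Markers of other cells were read on the same arrays, where 28.8% of all probes were called higher in OPP mice and 24.4% in water mice at 4 weeks against 1 week. Of 21 erythroid marker probes, 6 rose in OPP mice, a share near that background, and 10 rose in water mice, and 0 fell in either drink, and the list's median lay between 0.22 and 0.47 on the 4-week arrays against -0.76 to 0.064 at 1 week. Of 17 macrophage marker probes, 11 rose and 0 fell in each drink, with medians of 0.12 to 0.40 at 4 weeks against -0.42 to -0.066 at 1 week. The part of these cells in the rise of Slc40a1, Trf and Fth1 was not tested.

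Lcn2 and Hp fell in spleen between 18 hours and 4 weeks in water mice. Lcn2 ratios in spleens of OPP mice were 1.19, 1.30 and 0.918 at 18 hours, 1.15, 0.700 and 1.08 at 1 week, and 0.822, 0.811 and 0.524 at 4 weeks. Lcn2 ratios in spleens of water mice were 1.48, 1.56 and 1.10 at 18 hours, 1.23, 1.43 and 0.487 at 1 week, and 0.388, 0.443 and 0.568 at 4 weeks. The OPP arrays of 4 weeks lay below those of 18 hours and overlapped those of 1 week. Hp probe b ratios in spleens of OPP mice were 1.57, 1.78 and 0.984 at 18 hours, 1.35, 0.843 and 1.02 at 1 week, and 0.704, 0.771 and 0.585 at 4 weeks. Hp probe b ratios in spleens of water mice were 2.00, 3.26 and 1.80 at 18 hours, 1.20, 1.75 and 0.710 at 1 week, and 0.771, 0.513 and 0.733 at 4 weeks. In water mice the 4-week arrays of Lcn2, 0.388 to 0.568, lay below those of 18 hours and overlapped those of 1 week. At 4 weeks against 18 hours in water mice, Lcn2 fell, with a log2 difference of -1.57 (SE 0.30, limma adjusted p = 0.00167), Hp probe a -1.36 and probe b -1.78 (adjusted p = 0.000665 and 0.000764). Without the 3 hepatocyte-high arrays, which leaves 1 water array at 18 hours, Lcn2 (-1.68, adjusted p = 0.0587) and Hp probe a (-1.24, adjusted p = 0.0503) were not called, and Hp probe b was (-1.60, adjusted p = 0.0478). In OPP mice Hp probe b fell, with a log2 difference of -1.04 (adjusted p = 0.00792), Hp probe a differed by -0.33 and Lcn2 by -0.68, both without a call (adjusted p = 0.284 and 0.102). Lcn2 in OPP mice was called with each array centred (-0.81, adjusted p = 0.0491) and with quantile normalisation (-1.08, adjusted p = 0.00657). The call of probe b in OPP mice was lost without replicate 2 of 18 hours (-0.86, adjusted p = 0.0548).

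Against 1 week, Lcn2 fell, with a log2 difference of -1.05 and Hp probe b -0.79 in water mice (limma adjusted p = 0.0159 and 0.0468). Both calls were lost without replicate 1 or 2 of 1 week or replicate 1 of 4 weeks (adjusted p = 0.0546 to 0.0818 for Lcn2 and 0.0779 to 0.219 for Hp probe b), and that of Hp probe b also without replicate 2 or 3 of 4 weeks (0.178 and 0.0619). Neutrophil markers were read on the same arrays. Of 23 neutrophil probes, 11 fell in water mice at 4 weeks against 1 week (1.68% of all probes lower) and 0 in OPP mice (1.39%). Against 18 hours, 13 fell in water mice (1.34% of all probes lower) and 0 in OPP mice (1.05%), where Hp probe b was called. None rose in these comparisons. The median of the list was -0.52 to -0.041 on the OPP arrays and -0.71 to -0.28 on the water arrays of 4 weeks, against 0.003 to 0.165 and 0.14 to 0.31 at 18 hours. The part of neutrophils in the Lcn2 and Hp differences was not tested.

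Hpx and Hamp, made mainly by hepatocytes, were high on few spleen arrays. Hpx ratios in spleens of OPP mice were 0.995, 0.943 and 0.984 at 18 hours, 1.67, 1.34 and 1.00 at 1 week, and 1.20, 0.993 and 0.895 at 4 weeks. Hpx ratios in spleens of water mice were 1.18, 10.9 and 5.75 at 18 hours, 1.09, 0.935 and 1.07 at 1 week, and 0.913, 0.974 and 0.998 at 4 weeks. Replicates 2 and 3 of water at 18 hours stood apart from the other 16 arrays, whose highest value was 1.67. Hamp ratios in spleens of OPP mice were 0.998, 0.989 and 1.00 at 18 hours, 2.11, 0.866 and 0.918 at 1 week, and 1.03, 1.22 and 0.978 at 4 weeks. Hamp ratios in spleens of water mice were 1.03, 2.04 and 1.94 at 18 hours, 0.888, 0.977 and 0.908 at 1 week, and 0.995, 1.15 and 1.08 at 4 weeks. Hamp exceeded 1.22 on 3 arrays, the same 3 whose hepatocyte markers were high. Hpx at 18 hours was -2.11 in OPP minus water on the log2 scale (SE 0.45, limma adjusted p = 0.426), and it was called without replicate 1 of water (-3.02, adjusted p = 2.3e-07). That leaves as water arrays only the 2 with high hepatocyte markers, so the call cannot tell OPP from those markers. In water mice Hpx fell, with a log2 difference of -2.03 at 1 week and -2.13 at 4 weeks (adjusted p = 0.0439 and 0.00308). The 1-week call was lost with only the arrays compared (limma adjusted p = 0.448), array weights (0.0603) and a robust prior (0.147). It was also lost without replicate 2 or 3 of 18 hours or replicate 1 or 2 of 1 week (0.0736 to 0.214). Leaving out the 3 hepatocyte-high arrays removes the 2 high Hpx values of water mice at 18 hours and leaves 1 array there, at 1.18. The differences at 1 and 4 weeks were then -0.20 and -0.29, which describes that array and tests nothing.

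**Figure D4:**
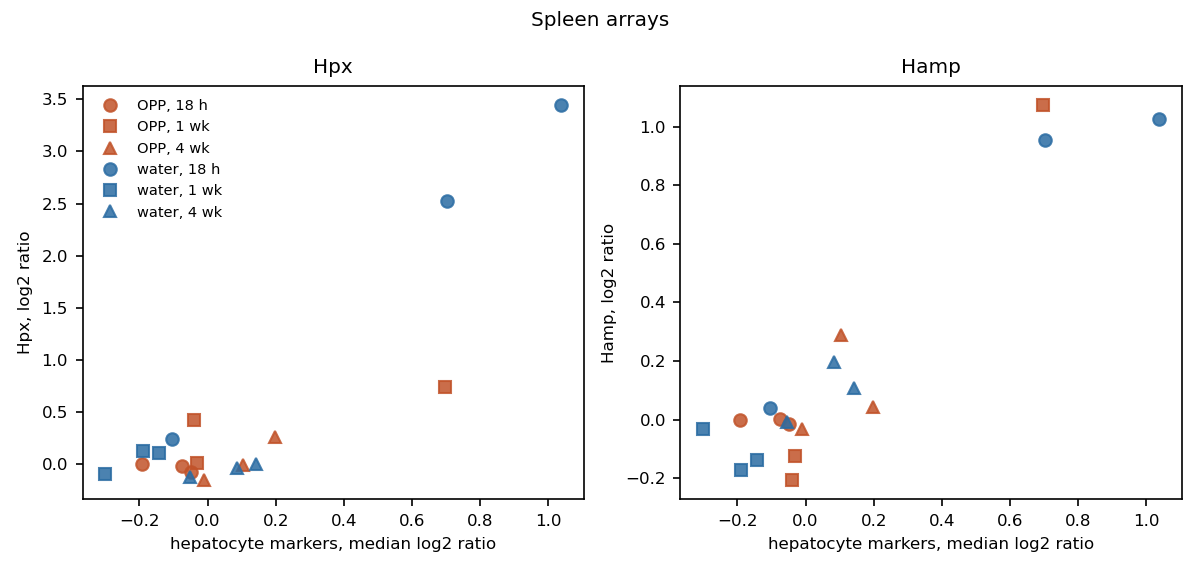
Log2 ratio of Hpx (left) and Hamp (right) against the median log2 ratio of 22 hepatocyte marker probes on the 18 spleen arrays. Water replicates 2 and 3 of 18 hours (Hpx ratios 10.9 and 5.75) and OPP replicate 1 of 1 week (Hamp ratio 2.11) lie to the right.

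Steap4 probe b and Cp fell in spleen between 18 hours and 1 week. Steap4 probe b ratios in spleens of OPP mice were 1.55, 1.81 and 0.783 at 18 hours, 0.712, 0.709 and 0.700 at 1 week, and 1.02, 1.01 and 0.849 at 4 weeks. Steap4 probe b ratios in spleens of water mice were 1.77, 2.32 and 1.54 at 18 hours, 0.798, 0.748 and 0.711 at 1 week, and 1.07, 0.989 and 1.06 at 4 weeks. The 1-week arrays lay below every array of 4 weeks. In water mice this probe was also called lower at 4 weeks, 0.989 to 1.07, than at 18 hours, 1.54 to 2.32. Without the 3 hepatocyte-high arrays, which left 1 water array at 18 hours, that log2 difference was -0.77. Cp ratios in spleens of OPP mice were 2.02, 2.13 and 0.847 at 18 hours, 0.702, 0.741 and 0.693 at 1 week, and 1.00, 0.998 and 0.941 at 4 weeks. Cp ratios in spleens of water mice were 1.62, 3.55 and 1.62 at 18 hours, 0.969, 0.773 and 0.721 at 1 week, and 1.23, 1.25 and 1.31 at 4 weeks. The 1-week arrays of Steap4 probe b reached 0.798 and overlapped those of 18 hours through 1 OPP array at 0.783, and for Cp the 1-week arrays reached 0.969, above that same 18-hour OPP array at 0.847. At 1 week against 18 hours limma called 2 members lower and 0 higher in OPP mice (4.16% of all probes, 1.84% lower and 2.32% higher) and 4 lower and 0 higher in water mice (0.65%, 0.555% lower and 0.0959% higher), among them Steap4 probe b (-0.88 in OPP mice and -1.30 in water mice) and Cp (-1.11 and -1.37), with adjusted p-values of 0.0144 to 0.0309. Both OPP calls were lost without any 1 of 5 arrays (adjusted p = 0.0574 to 0.154), OPP replicate 3 of 18 hours being the exception. In water mice, none of the 4 was called without replicate 2 of 18 hours and 2 were called without replicate 2 of 1 week, the array with low acinar markers. Without the 3 hepatocyte-high arrays no member was called in either drink. The differences were then -0.88 for Steap4 probe b and -1.10 for Cp in OPP mice (adjusted p = 0.0978 and 0.0867), and -1.23 and -0.99 in water mice (adjusted p = 0.353 and 0.428), where 1 array was left at 18 hours. Over all probes the calls in OPP mice then fell to 1, against 997. Leaving out any 1 of the same 5 OPP arrays alone also lowered them, to between 48 and 484. In water mice the calls over all probes went from 156 to 2 without replicate 2 of 18 hours and to 32 without replicate 2 of 1 week.

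Steap4 probe a ratios in spleens of OPP mice were 1.00, 0.998 and 1.22 at 18 hours, 1.23, 0.851 and 0.908 at 1 week, and 1.05, 1.08 and 0.993 at 4 weeks. Steap4 probe a ratios in spleens of water mice were 0.970, 0.897 and 1.16 at 18 hours, 0.779, 1.13 and 1.03 at 1 week, and 0.999, 1.05 and 0.997 at 4 weeks. Steap4 probe a had no call in spleen, and its spread over the 18 arrays stood at percentile 45.87 of all probes. Hamp2 ratios in spleens of OPP mice were 0.430, 2.36 and 2.64 at 18 hours, 0.260, 0.635 and 0.617 at 1 week, and 0.525, 1.37 and 0.798 at 4 weeks. Hamp2 ratios in spleens of water mice were 1.48, 1.11 and 0.708 at 18 hours, 0.896, 0.133 and 3.26 at 1 week, and 1.10, 1.34 and 1.71 at 4 weeks. Hamp2 spread by a factor of 24.5 between its lowest and highest spleen array, the replicates of water at 1 week running from 0.133 to 3.26, and no spleen comparison called it. Hp probe a ratios in spleens of OPP mice were 1.20, 1.30 and 0.924 at 18 hours, 1.14, 0.915 and 1.03 at 1 week, and 0.971, 0.887 and 0.841 at 4 weeks. Hp probe a ratios in spleens of water mice were 1.64, 2.16 and 1.58 at 18 hours, 1.03, 1.22 and 0.545 at 1 week, and 0.686, 0.644 and 0.756 at 4 weeks. This Hp probe was highest on the water arrays of 18 hours, 1.58 to 2.16, which no other spleen array reached.

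Whether the times differed between the tissues was tested in 1 fit to all 36 arrays, as the liver change minus the spleen change averaged over the drinks. The fit had no term for mouse, so liver and spleen arrays were treated as independent even if they shared mice. At 1 week against 18 hours, 5 of 12 probes differed between the tissues (13.5% of all probes), and at 4 weeks against 18 hours 10 did (26.5%). Lcn2 changed by -6.28 in liver and -0.38 in spleen at 1 week, a difference of -5.90 (SE 0.40, limma adjusted p = 1.66e-11). Hamp2 differed by 3.83 (SE 0.71, adjusted p = 0.000278), with 2.79 in liver and -1.05 in spleen. At 4 weeks Trf, Slc40a1 and Fth1 changed by 0.038, 0.095 and 0.27 in liver and by 0.96, 0.81 and 1.06 in spleen, differences of -0.92, -0.72 and -0.79 (adjusted p = 7.34e-05, 0.000234 and 0.00043). Of the 15 differences called, all 15 were called again without the 3 hepatocyte-high arrays and with each array centred. Hpx was not called at 1 week (0.23, adjusted p = 0.774). Without the hepatocyte-high arrays its difference was -0.60. Their removal takes out the high Hpx values of spleen water at 18 hours and leaves 1 array there, so it tests nothing for Hpx.

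**Figure D5:**
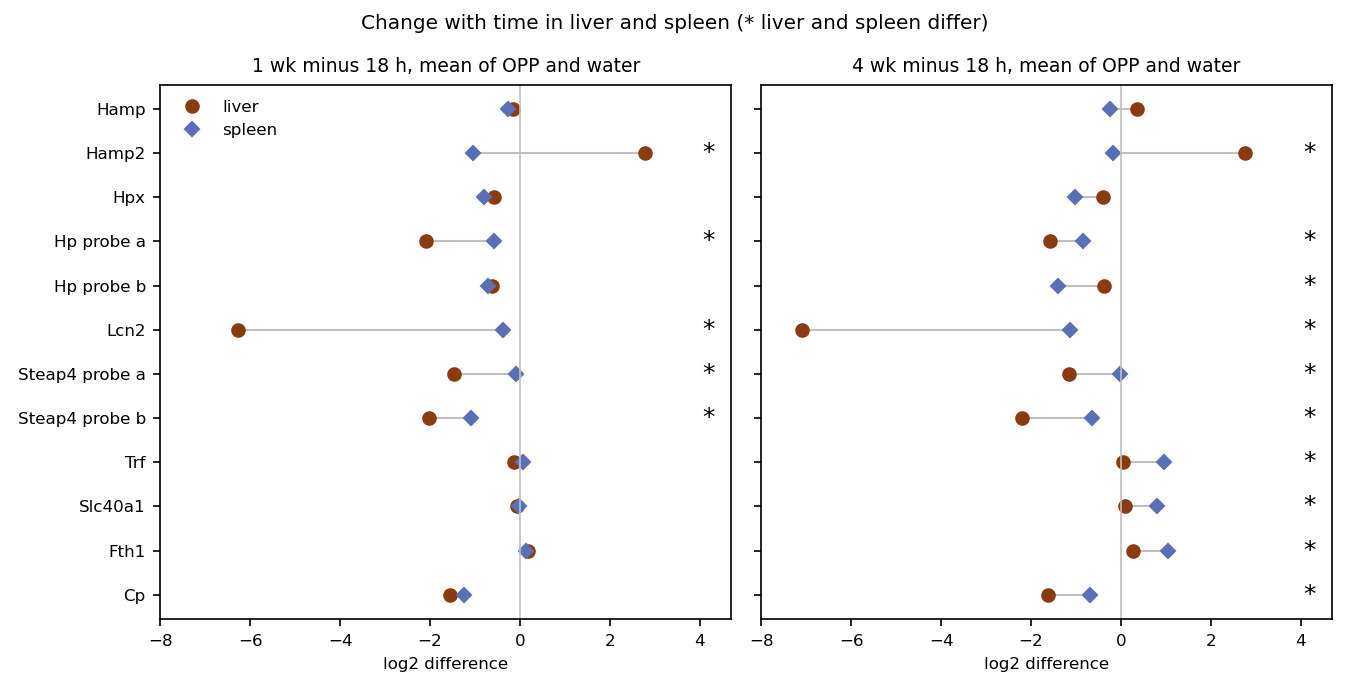
Log2 difference from 18 hours of each member probe in liver (circles) and spleen (diamonds), averaged over OPP and water, at 1 week (left) and 4 weeks (right). Asterisks mark the 5 and 10 probes whose change differed between the tissues by limma, Lcn2 by -5.90 and -5.97.

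Other genes of iron and haem handling were read from 5 lists with 100 probes. In liver at 1 week against 18 hours, the median of all probes was 0.029 in OPP mice and 0.010 in water mice on the log2 scale. Over all probes limma called 14.7% higher and 2.61% lower in OPP mice, and 4.46% higher and 2.66% lower in water mice. Of the genes that control hepcidin, limma called 9 of 30 probes higher and 1 lower in OPP mice (median 0.079) and 4 higher and 2 lower in water mice (median -0.001). Among them were Tmprss6 (1.20 in OPP mice and 0.84 in water mice), a protease that restrains hepcidin, Bmpr1a (0.62 in OPP mice and 0.67 in water mice, by 1 of its 2 probes), a BMP receptor, Smad4 (0.67 in OPP mice and 0.56 in water mice), which carries BMP signals to the nucleus, and Socs3 (-1.61 in OPP mice and -2.04 in water mice), an inhibitor of STAT3 signalling. Iron uptake, transport and export had 3 of 24 probes higher and 3 lower in OPP mice (median 0.016) and 0 higher and 5 lower in water mice (median -0.081). In this list Slc39a14, an importer of iron that is not bound to transferrin, fell by 2 of its 3 probes in OPP mice (differences of -0.55 and -0.58) and by all 3 in water mice (-0.74, -0.55 and -0.68). Slc11a1, a metal transporter of phagosomes, fell by 1 of its 3 probes in both drinks (-0.37 in OPP mice and -0.41 in water mice), and a second was called in water mice alone (-0.20 in OPP mice, adjusted p = 0.311, and -0.62 in water mice).

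Iron storage and the iron regulatory protein system had 7 of 14 probes higher and 1 lower in OPP mice (median 0.39) and 1 higher and 0 lower in water mice (median 0.18), with Pcbp2 (0.41 in OPP mice and 0.49 in water mice), an iron chaperone. Haem synthesis had 7 of 18 probes higher and 0 lower in OPP mice (median 0.27) and 2 higher and 1 lower in water mice (median 0.051), with Abcb6 (0.54 in OPP mice and 0.40 in water mice), a porphyrin transporter, and Alad (0.55 in OPP mice and 0.36 in water mice), an enzyme of the early pathway. The probe lower in water mice was of Uros (-0.62, limma adjusted p = 0.00886), which differed by -0.001 in OPP mice. Haem uptake, breakdown and export had 2 of 14 probes higher and 3 lower in OPP mice (median -0.041) and 1 higher and 3 lower in water mice (median 0.003). There Hmox1 (-0.75 in OPP mice and -0.86 in water mice), haem oxygenase, and Spic (-0.43 in OPP mice and -0.44 in water mice), a transcription factor of iron-recycling macrophages, fell, and Slc48a1 (0.36 in OPP mice and 0.41 in water mice), a haem transporter, rose. A probe of Lrp1 was called lower in water mice alone (-0.79, limma adjusted p = 0.0171, against 0.10 in OPP mice). The listed acute phase proteins outside the members gave a reference for size: of 21 probes, 18 fell in OPP mice (median -1.24) and 18 in water mice (median -1.48). Whether the members' falls differ from theirs was not tested.

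In spleen at 4 weeks against 1 week most calls in these lists were higher, as over all probes, whose median was 0.17 in OPP mice and 0.15 in water mice. Of all probes, 28.8% were called higher and 1.39% lower in OPP mice, and 24.4% and 1.68% in water mice. Haem uptake, breakdown and export had 9 of 14 probes higher and 0 lower in OPP mice (median 0.53) and 9 higher and 1 lower in water mice (median 0.49). They included Hmox1 (1.09 in OPP mice and 1.00 in water mice), Spic (0.93 in OPP mice and 0.91 in water mice), Cd163 (0.72 in OPP mice and 0.79 in water mice), the macrophage receptor for haemoglobin bound to haptoglobin, and Abcg2 (0.65 in OPP mice and 1.07 in water mice), a porphyrin exporter. With each array centred, 6 were higher and 1 lower in OPP mice and 7 and 1 in water mice. Iron storage and the iron regulatory protein system had 9 of 14 probes higher and 0 lower in OPP mice (median 0.47) and 8 higher and 0 lower in water mice (median 0.45), with Iscu (0.74 in OPP mice and 0.71 in water mice), a scaffold for iron-sulphur clusters, and Fbxl5 (0.48 in OPP mice and 0.52 in water mice, by 1 of its 3 probes), an iron sensor that targets iron regulatory protein for degradation. Centred, these counts were 6 and 1 in OPP mice and 6 and 0 in water mice.

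Hepcidin control had 10 of 30 probes higher and 0 lower in OPP mice (median 0.25) and 10 higher and 0 lower in water mice (median 0.24), and centred 4 higher and 1 lower in OPP mice and 5 and 0 in water mice. The share of all probes called higher, before centring, was 28.8% in OPP mice and 24.4% in water mice. Shares called higher in the iron uptake and haem synthesis lists that follow were below it in both drinks. Iron uptake, transport and export had 5 of 24 probes higher and 0 lower in OPP mice (median 0.16) and 5 higher and 1 lower in water mice (median 0.14), among them Tfrc (0.40 in OPP mice and 0.67 in water mice, not called in OPP mice), the transferrin receptor, and Ltf (-0.59 in OPP mice and -1.20 in water mice, not called in OPP mice), lactoferrin of neutrophil granules. Haem synthesis had 4 of 18 probes higher and 0 lower in OPP mice (median 0.41) and 2 higher and 0 lower in water mice (median 0.34), with Alas2 (0.49 in OPP mice and 0.67 in water mice), the erythroid enzyme that begins haem synthesis. Alas2, Cd163, Spic and Ltf also stand in the marker lists of erythroid cells, macrophages and neutrophils, and the part of those cells was not tested.

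The genes whose profiles were most like a member's over the 18 arrays of a tissue, by Pearson's r on the log2 scale, are given as a description, since arrays of a group share their time and drink. Liver Lcn2 was most like Orm2 (0.984), Apcs (0.982), Tnfrsf8 (0.982), Saa2 (0.981), which include the acute phase proteins Orm2, Apcs and Saa2. Liver Hpx was most like Fas (0.949), Ifitm1 (0.945), Stap2 (0.934), Serpina3n (0.93). Liver Hamp was less closely matched, by Bmerb1 (0.877), Gpat3 (0.869), Gdi2 (0.818), and liver Slc40a1 by Bcas3 (0.938), Cyld (0.925), Papolg (0.895). Spleen Lcn2 was most like Cd177 (0.979), Wfdc21 (0.974), Ms4a3 (0.966), S100a9 (0.961), of which S100a9 and Cd177 are neutrophil genes. Spleen Hamp was most like Apof (0.93), Cyp2e1 (0.922), Apoa2 (0.917), which hepatocytes make, and spleen Slc40a1 like Imp3 (0.984), Hadhb (0.981), Rbm18 (0.98).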

How the data were processed

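RNA from 36 samples was hybridised to Illumina BeadChip arrays after RNeasy extraction and biotin labelling of cRNA with the TotalPrep kit, per the labels' protocols. The deposited values are linear ratios centred within each tissue. This was read from the values, since every probe's median over 18 arrays was within 0.0005 of 1, and how the authors corrected background and scaled arrays is not given in the sources used here. A second table of unnormalised signals was not used, because its 36 sample columns match no label. Of 23982 probes, 19344 carried 1 gene symbol in the platform annotation and 4638 none.

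Log2 ratios, with no offset, were fitted per tissue with limma 3.58.1 in R 4.3.3, with a mean for each of 6 groups and 12 residual degrees of freedom. The fit gave 20 comparisons and 4 F tests, with Benjamini-Hochberg adjustment over all probes and calls at an adjusted p under 0.05, and it was tested on simulated data. Values were handled with pandas 2.3.3 in Python 3.11.15. Nothing in the labels says that replicates came from separate mice, so p-values measure the spread between these samples, and the number of arrays limits the precision. The members and lists were chosen with earlier results of these data known. Every member probe is described. Of each list, at most the 4 probes with the smallest p in a comparison could be named, and of like profiles the top 5. Alternatives were a fit to the arrays compared, a replicate block, array weights, median centring, quantile normalisation, a robust prior, the more variable probes and leaving out each array. Leaving out the 3 spleen arrays with high hepatocyte markers and the fit to all 36 arrays were added after the data were seen.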

Additional observations from a re-analysis of the deposited data

Results flagged for a closer look

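Between liver and spleen, 15 member changes with time differed in the fit to all 36 arrays, 5 at 1 week and 10 at 4 weeks, from 10 of the 12 probes (limma, adjusted p under 0.05), each given as the liver change minus the spleen change on the log2 scale, averaged over OPP and water. At 1 week against 18 hours these were Hamp2 at 3.83 (adjusted p = 0.000278), Hp probe a at -1.51 (1.62e-05), Lcn2 at -5.90 (1.66e-11), Steap4 probe a at -1.37 (4.21e-07) and Steap4 probe b at -0.93 (0.00114). At 4 weeks against 18 hours the genes of plasma binding and reduction were Hamp2 at 2.94 (0.00194), Hp probe a at -0.73 (0.0141), Hp probe b at 1.03 (0.00309), Lcn2 at -5.97 (3.83e-12), Steap4 probe a at -1.15 (2.67e-06), Steap4 probe b at -1.55 (4.79e-07) and Cp at -0.93 (0.00369). The transport and storage genes were Trf at -0.92 (7.34e-05), Slc40a1 at -0.72 (0.000234) and Fth1 at -0.79 (0.00043). The Hp probes had opposite signs at 4 weeks: probe a changed by -1.58 in liver and -0.84 in spleen, and probe b by -0.38 in liver and -1.41 in spleen.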

How the results depend on the processing

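The 56 called member values were recomputed 754 times, of which 685 kept their call and direction, 69 lost the call and 0 turned sign. Among values without a call, 54 became called and 165 turned sign. The 15 tissue differences kept direction and call under both alternatives run on them. Counts of called member probes moved by over 1.5 times in spleen as follows. OPP against water at 4 weeks gave 3 with only the arrays compared and 1 with quantile normalisation, against 0. In water mice, 1 week against 18 hours gave 1 with only the arrays compared, 1 with a robust prior and 0 without the hepatocyte-high arrays, against 4, and 4 weeks against 18 hours gave 1 without those arrays, against 8. Water at 4 weeks against 1 week gave 3 with a robust prior, against 5. In OPP mice, 1 week against 18 hours gave 1 with a robust prior and 0 without the hepatocyte-high arrays, against 2. OPP at 4 weeks gave 7 centred and 8 with quantile normalisation against 18 hours (4), and 6 with only the arrays compared, 5 with array weights and 5 with quantile normalisation against 1 week (3). In liver, OPP against water gave 1 at 1 week with quantile normalisation and 1 in the mean of times with array weights, against 0. Leaving out 1 array gave 0 to 1 for OPP against water in spleen at 18 hours, in the spleen mean and in the spleen F test of OPP by time, and in liver at 1 week. It gave 0 to 4 for spleen water at 1 week against 18 hours, 3 to 6 at 4 weeks against 1 week, and 0 to 2 for spleen OPP at 1 week against 18 hours. Over all probes, leaving out the hepatocyte-high arrays lowered the calls to 386 from 5838 for spleen water at 4 weeks against 18 hours, to 6 from 156 at 1 week, and to 1 from 997 for spleen OPP at 1 week; for OPP against water in spleen it lowered them to 12 from 80 at 4 weeks and to 7 from 406 in the mean of times, which fell to 41 without water replicate 1 of 18 hours. Single arrays left out also lowered the calls for spleen OPP at 1 week, to 48 without replicate 3 of 1 week and 51 without replicate 2 of 18 hours. Replicate numbers did not pair the arrays: 0 of 18 comparisons had every pair's r above 0.1 (-0.291 to 0.248), and in 2 every array was most like its own number. A replicate block gave 9 against 8 in spleen water at 4 weeks against 18 hours and 7 against 8 in liver OPP at 4 weeks against 18 hours. The more variable probes (11991 kept) left out Steap4 probe a in spleen. A slide block and the unnormalised table were not run, since the files name no slides and the columns no samples. With 3 arrays a group, small differences could be missed, depending on the spread of a probe, and signal over background is unknown.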

Other observations

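Genes of the same pathways that limma called between OPP and water were few. In liver at 1 week Tfrc, the transferrin receptor, was higher in OPP mice by 0.94 (SE 0.20, adjusted p = 0.0297) on the log2 scale, a call lost without 5 of its 6 arrays in turn (adjusted p up to 0.142), with a replicate block (0.0507) and with a robust prior (0.053). In the mean of the 3 times in spleen, Lrp1, the receptor for haem bound to haemopexin, was lower in OPP mice by -0.45 (adjusted p = 0.0281), Stat3 by -0.29 (adjusted p = 0.0477, by 1 of its 2 probes) and Smad1 by -0.24 (adjusted p = 0.0356, by 1 of its 2 probes). Without the 3 hepatocyte-high arrays these differences were -0.45, -0.26 and -0.23 and none was called (adjusted p = 0.115, 0.226 and 0.182). Leaving out the 18 arrays in turn ended the call of Lrp1 9 times, of Stat3 12 times and of Smad1 11 times, and Stat3 and Smad1 were not called with each array centred (0.0714 and 0.055) or with quantile normalisation (0.0698 and 0.0789). Of 22 hepatocyte marker probes in liver, 15 were higher and 0 lower at 4 weeks against 18 hours in OPP mice, where 13.7% of all probes were called higher, and 2 were higher and 1 lower in water mice, where 5.91% were. None of the 22 was called between OPP and water in liver at any of the 3 times (limma, 0 of 22 each), and whether the counts differ between the drinks was not tested.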
